A study of Mus musculus with 2 samples.

Results

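The 10 genes described here carry the TGF-β and activin signal: the ligands Tgfb1, Tgfb2, Tgfb3 and Inhba, the receptors Tgfbr1, Tgfbr2, Acvr1b and Acvr2a, the activin antagonist Fst, and Tgfbi, a secreted matrix protein named for its induction by TGF-β. They were found by their symbols among the 32285 genes listed, and all 10 were present. They were selected on their measured levels by cell class, myeloid state and library, which were already known, so every level below is a description. The data came from colorectal tumours induced in mice by AOM/DSS, that is azoxymethane, a carcinogen, followed by dextran sulphate sodium, an irritant of the colon, whose single cells were captured in droplets and sequenced at transcript 3′ ends. Wild-type mice (WT) gave 1 library, as did mice with a global knockout of the kinase gene Stk25 (STK25 wKO), both made from tumours pooled within its group before dissociation with trypsin. With a single library per genotype there is no replicate check and no test was made, and genotype cannot be told apart from pool, library and tumour. The age of the mice, the knockout allele and the tumours pooled per group are not given in the sources used here. The records also mention a sort by mCherry without saying what carried it.

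Ligands of this family bind pairs of type II and type I receptor kinases, which pass the signal to SMAD proteins. TGF-β is bound by Tgfbr2 and then Tgfbr1, and activin A, a dimer of 2 chains encoded by Inhba, is bound by Acvr2a or its relative and then Acvr1b. In the colon the pathway restrains epithelial growth, shapes the matrix made by fibroblasts and sets the state of macrophages and T cells, while follistatin, the product of Fst, binds activin and keeps it from its receptors.

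After filtering, 12270 cells with a median of 1383 UMIs (unique molecular identifiers, each standing for a captured transcript) remained in the library labelled WT, and 13883 with a median of 2091 in the library labelled STK25 wKO. Of the barcodes, 230 occurred in both libraries (1.83% and 1.62%). Stk25 itself was not lost under its label, at 118 and 127 CPM over all cells, where CPM is UMIs of a gene per 1000000 UMIs. The counts are per gene, and if the allele leaves the 3′ end in place this checks nothing about genotype, so each library is named by its label and every direction is that of the labels. Clustering without the 10 genes and named by marker genes gave 12 classes, and every marker set was more frequent in its own class than elsewhere. The share of macrophages or monocytes was 2.55% under the label WT and 7.71% under the other, neutrophils 1.84% and 11.6%, T or NK cells 31.9% and 10.4%, and fibroblasts 5.38% and 5.76%. Unnamed clusters, with 2057 and 2218 cells, were shallow, at median depths of 687 and 776 UMIs. Below, values of the library labelled WT come first, ratios are of STK25 wKO to WT, and intervals are exact 95% intervals that cover counting error only.

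In these tumours Inhba had its largest share of UMIs in macrophages or monocytes. It was also the member with the widest gap between the libraries. The gene (ENSMUSG00000041324) lies on the forward strand of chromosome 13, from 16011851 to 16031621 in GRCm38, the build the files name mm10. The 250 bases before its start, chr13:16011601-16011850 on the forward strand, are shown because most of the results below turn on this gene. In the sequence from RefSeq (GRCm38.p6), capitals mark the single match to a loose NF-κB pattern, searched on both strands.

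Inhba upstream: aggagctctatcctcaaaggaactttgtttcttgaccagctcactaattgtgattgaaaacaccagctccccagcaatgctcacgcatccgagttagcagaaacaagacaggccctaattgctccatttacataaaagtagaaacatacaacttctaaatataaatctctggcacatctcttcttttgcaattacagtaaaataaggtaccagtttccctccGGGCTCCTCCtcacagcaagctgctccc

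Of 32851 promoter windows of the same length, 45.8% held a match to that pattern, so a match is common. The AP-1 pattern TGANTCA, present in 6.75% of windows, and the cyclic AMP response element TGACGTCA, present in 1.55%, were not found in the windows of any of the 8 members that the promoter table holds.

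Over all cells, Inhba was at 12.1 CPM (11.0 to 13.2) and 43.8 CPM (42.2 to 45.4), a log2 ratio of 1.86. It had a UMI in 167 and 700 cells. Macrophages or monocytes held 47.2% and 68.0% of its UMIs while making up only the small shares of cells given above. The classes of the library labelled STK25 wKO were then weighted by their shares of UMIs in the library labelled WT. The level became 25.2 CPM and the log2 ratio 1.06, so that part of the gap moved with the make-up of the libraries. That make-up covers both the cells of a class and their depth.

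**Figure D1:**
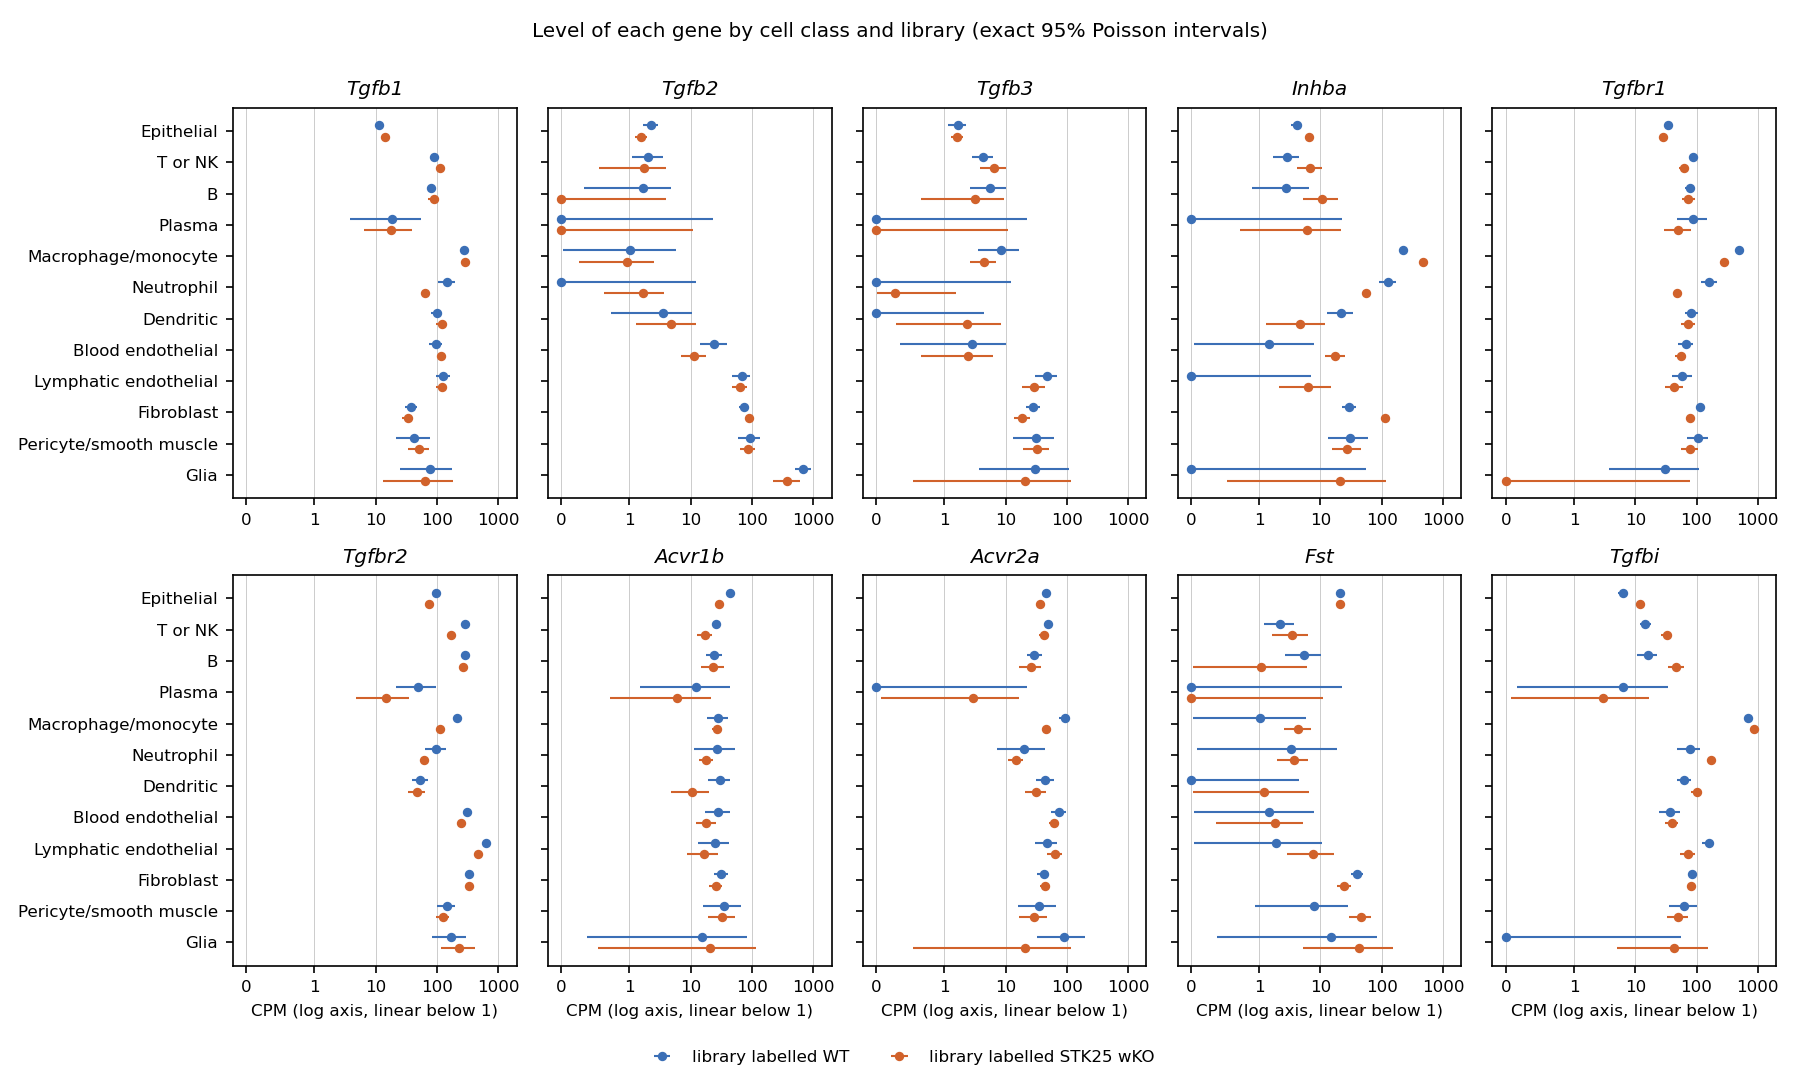
Level of the 10 genes in 12 cell classes, in CPM on a log axis that is linear below 1. Blue points are the library labelled WT, orange points the library labelled STK25 wKO, and bars are exact 95% Poisson intervals. Inhba and Tgfbi peaked in macrophages or monocytes, Tgfb2 in glia, and Tgfbr2 in lymphatic endothelial cells.

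Among 86 pairs of a member and a class with at least 20 UMIs over both libraries, 8 were at least 2-fold higher in the library labelled STK25 wKO and 8 at least 2-fold lower, which is 9.30% in each direction. Over all genes and classes, 5.73% of pairs were at least 2-fold higher and 7.17% at least 2-fold lower. The shares of the members were not far above this background, and nothing particular to them is read from the counts. The other 70 pairs lay within 2-fold, out of 120 possible pairs when those with too few UMIs are included. Of the 8 higher pairs, 4 were Inhba, 3 Tgfbi and 1 Fst. Among them were Tgfbi in B cells and in T or NK cells and Inhba in T or NK cells, low levels from which no expression is read below. Plasma cells (14.9% of all genes at least 2-fold higher and 34.2% lower) and glia (11.6% and 13.7%), the smallest classes, had no member among the 16 pairs. The 8 lower pairs were spread over Tgfb1, Tgfb2, Inhba, Tgfbr1, Acvr1b, Acvr2a and Tgfbi.

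**Figure D2:**
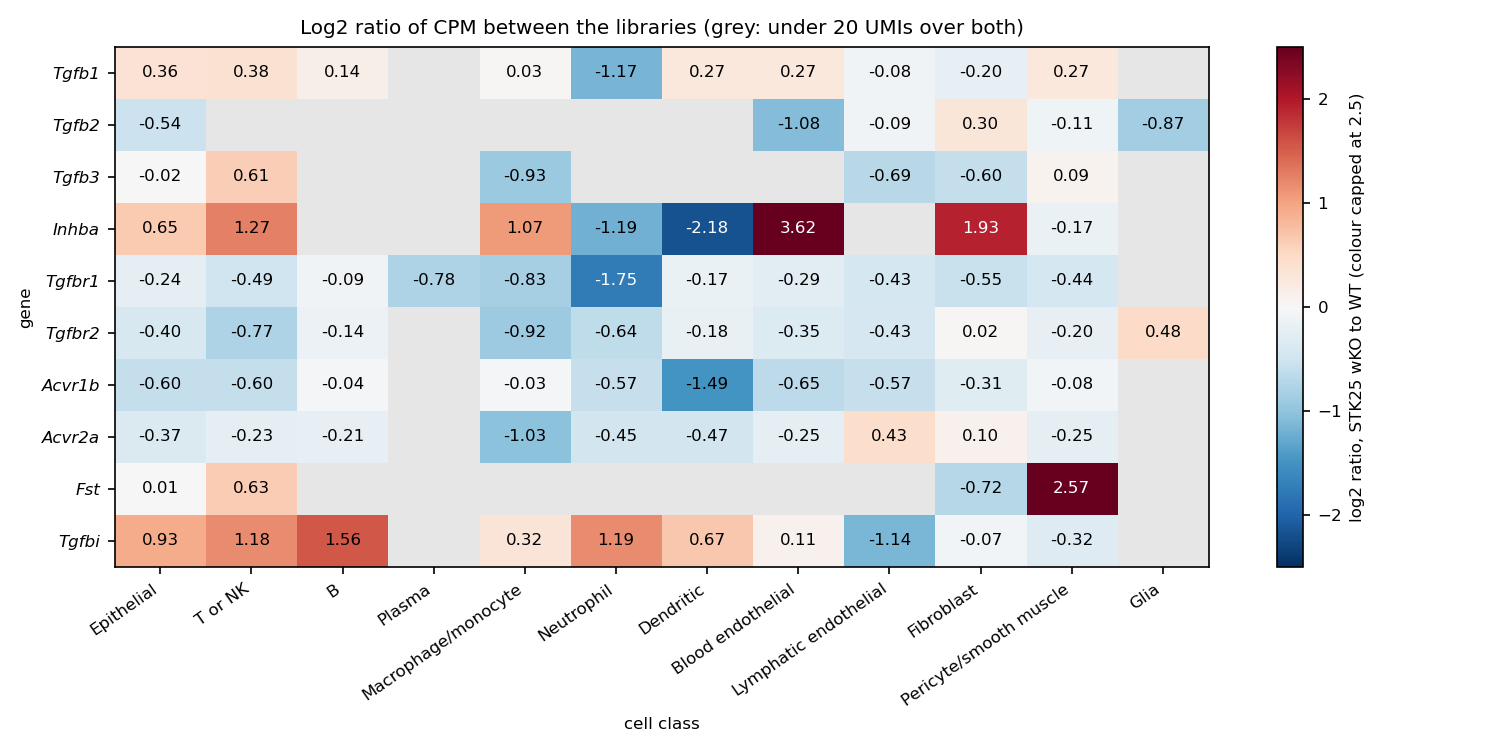
Log2 ratio of the level in the library labelled STK25 wKO to that in the library labelled WT for each gene (rows) and cell class (columns), with colour from blue (lower) to red (higher) and grey where fewer than 20 UMIs were counted. The rows of the 4 receptors are mostly blue, and the row of Inhba runs from -2.18 in dendritic cells to 3.62 in blood endothelial cells.

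The macrophage or monocyte class had 313 and 1070 cells. Inhba was at 226 CPM there (197 to 258, 218 UMIs) and at 476 CPM (455 to 497, 1959 UMIs), a log2 ratio of 1.07 (0.87 to 1.28). In this class 5.77% of all genes were at least 2-fold higher and 7.56% at least 2-fold lower. A UMI of Inhba was found in 11.5% and 25.2% of these cells, at median depths of 2279 and 3031.5 UMIs. Thinning each cell to 1000 UMIs gave 9.09% and 17.3%, against 0.277% and 0.444% of B cells, which served as a gauge of RNA from outside the cells. Thinning left out cells under 1000 UMIs. B cells had median depths of 946 and 1229 UMIs, so the gauge covers only their deeper part. The transcript was concentrated in few cells. In the library labelled WT, 277 of 313 cells had no UMI of it, 14 had at least 5, and the 32 cells with the most held 98.2% of its UMIs. In the library labelled STK25 wKO, 800 of 1070 had none, 118 had at least 5, and the 107 cells with the most held 83.2%. UMIs of the same cell are not independent of each other, so the intervals of the levels are too narrow as statements about cells.

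Inhba ranged more widely over macrophage subclusters than between the libraries. Tissue macrophages marked by C1qa, C1qb, C1qc and Mrc1, genes of complement and of a scavenging receptor, were set against monocytes or macrophages low in C1q. The latter, named by a marker set with genes such as Ly6c2, Il1b, Spp1 and Arg1, held 95 of the 218 and 1027 of the 1959 UMIs of Inhba in the class, and subclusters of neither state 122 and 793. In the library labelled WT, Inhba was at 2.31 CPM in the C1q state (1 UMI in 105 cells) and at 528 CPM in the low-C1q state (95 UMIs in 76 cells), a log2 ratio of 7.84 (5.32 to 13.2) that rests on the single UMI of the C1q state. In the library labelled STK25 wKO the levels were 99.2 CPM (139 UMIs in 300 cells) and 850 CPM (1027 UMIs in 341 cells), a ratio of 8.57, or 3.10 on the log2 scale (2.84 to 3.37). The size of both ratios depended on the cells kept. Without a cell filter the log2 ratios were 1.5 and 1.56, and with a stricter filter (500 genes, 10% mitochondrial UMIs) 2.75 and 2.36. Of all genes, 8.39% and 5.02% were at least 2-fold higher in the low-C1q state than in the C1q state, and 16.4% and 20.1% at least 2-fold lower. The subclusters that fitted neither state, with 132 and 429 cells, had Inhba at 347 and 525 CPM. When cells were split by their own C1q UMIs instead, the log2 ratios of cells with none to cells above 10 per 10000 were 3.08 and 2.75.

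Within the low-C1q state, Inhba was highest in a subcluster led by Nos2, Ccl5 and Timp1, genes of nitric oxide synthesis, T cell attraction and metalloproteinase inhibition. It held 3 and 87 cells, and Inhba was at 2628 and 1979 CPM. A subcluster led by Il23a, Thbs1 and Plcb1, with 26 and 137 cells, had 908 and 940 CPM. A subcluster led by Wfdc21, Lrg1 and Chil3, 44 cells that were all in the library labelled STK25 wKO, had 4 UMIs of Inhba, at 16.4 CPM. Its 10 leading genes also held the neutrophil genes S100a8, S100a9 and Mmp8 beside the monocyte gene Ly6c2, so it is given no cell type name, although its C1q was low too. A subcluster led by Gm15987, Adgre4 and Arhgap26, with 47 of the 76 and 73 of the 341 cells of the state, had 50.3 and 174 CPM. It passed on 4 markers of the state, but over the whole marker set its average share of cells lay below the median subcluster. The state thus differed in its make-up between the libraries. Low C1q thus did not by itself go with high Inhba.

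Outside that state, a subcluster led by Nr4a3, Dcstamp and Nrg1, with 27 and 111 cells, had Inhba at 759 and 1174 CPM. A subcluster led by the antigen-presentation genes H2-DMb1, H2-Aa and H2-Ab1, with 16 and 199 cells, had 449 and 357 CPM. C1q macrophages led by Vcam1, Adgrl3 and Hdac9 had no UMI of Inhba in 84 and 156 cells, which allows levels of up to 11.4 and 5.93 CPM. C1q macrophages led by Mfge8, Gpnmb and Ctsd, genes of debris clearance and lysosomes, had 1 UMI in 21 cells (5.92 CPM) and 139 UMIs in 144 cells (155 CPM). The difference in the C1q state thus lay in this subcluster.

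**Figure D3:**
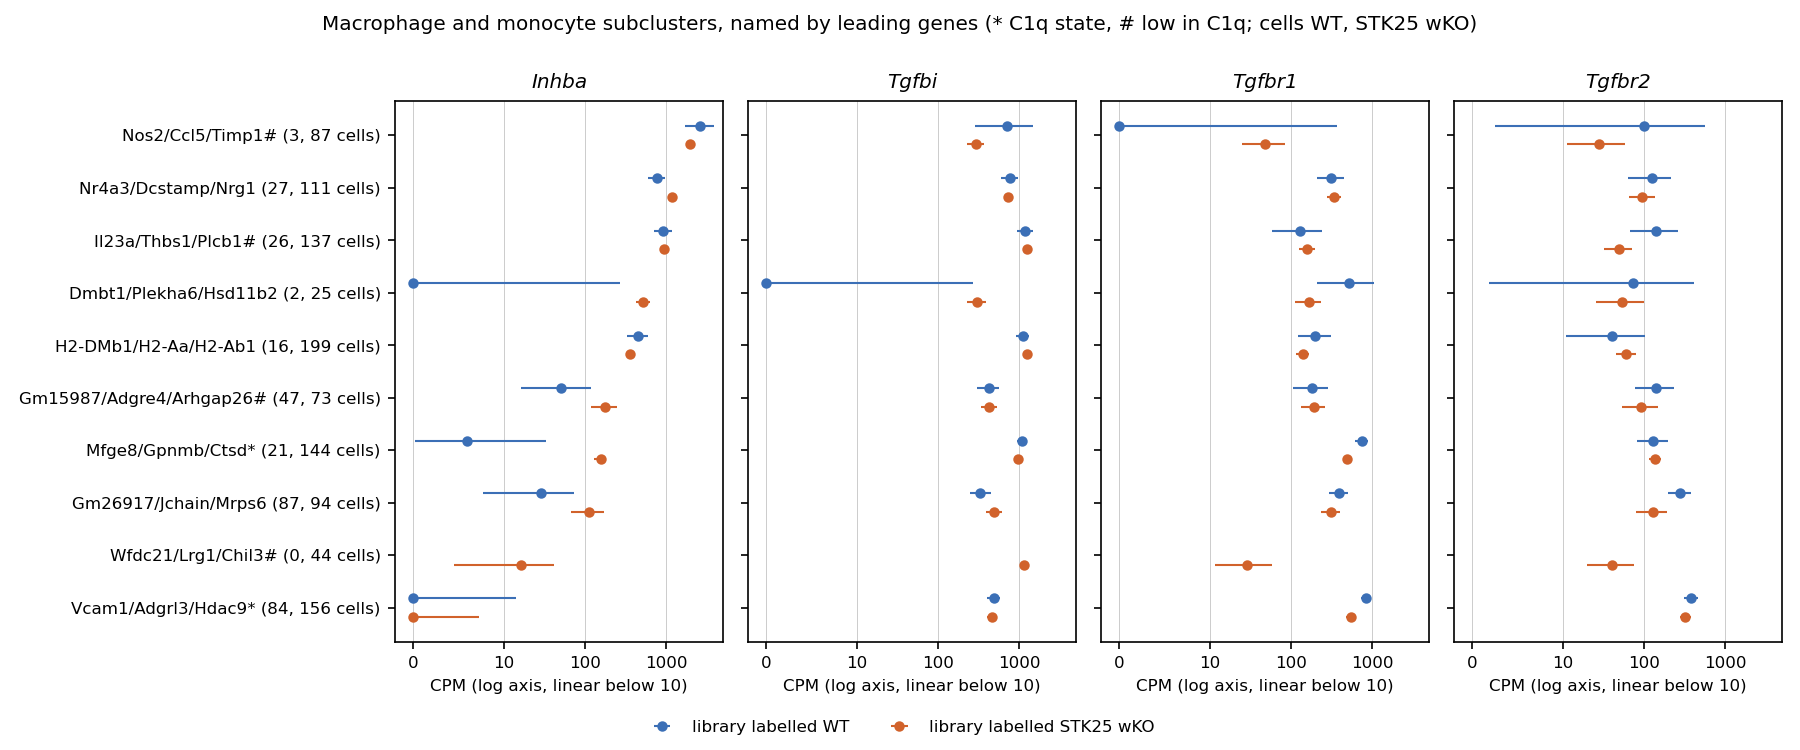
Inhba, Tgfbi, Tgfbr1 and Tgfbr2 in the 10 macrophage or monocyte subclusters, each named by its 3 leading genes with its cells under the labels WT and STK25 wKO, in CPM on a log axis that is linear below 10. Bars are exact 95% Poisson intervals, * marks the C1q state and # the low-C1q state. Inhba runs from no UMI in the Vcam1, Adgrl3 and Hdac9 subcluster to 2628 CPM in the Nos2, Ccl5 and Timp1 subcluster.

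The mix of subclusters differed between the libraries. With the levels of the library labelled STK25 wKO weighted by the subcluster UMIs of the library labelled WT, Inhba in the class was at 312 CPM and the log2 ratio fell from 1.07 to 0.46. Markers of other classes were also present. The 8 epithelial markers summed to 1510 and 2086 CPM in the macrophage class and the 7 neutrophil markers to 333 and 1502 CPM, with none of either set at 0, and their part in the difference was not tested. A subcluster of 2 and 25 cells led by the epithelial gene Dmbt1 had Epcam at 1551 and 1855 CPM and Inhba at 0 and 522 CPM.

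In fibroblasts most Inhba was found in a handful of cells. Over the class it was at 29.5 CPM (22.2 to 38.4, 55 UMIs) and 112 CPM (99.7 to 126, 298 UMIs), a log2 ratio of 1.93 (1.51 to 2.37), where 4.3% of all genes were at least 2-fold higher and 2.59% at least 2-fold lower. A UMI was in 4.24% and 4.88% of fibroblasts, and in 1.82% and 3.06% at 1000 UMIs per cell. A subcluster of 3 and 18 cells led by Mmp13, Mmp10 and Il1rl1, with the collagenase and stromelysin genes that gave it the name matrix-degrading, had 3 and 262 UMIs of Inhba, or 408 and 2732 CPM. In it 1 of 3 and 12 of 18 cells had a UMI. Without this subcluster, an alternative added with the data in view, fibroblasts had 28.0 CPM (52 UMIs) and 14.0 CPM (36 UMIs), and the log2 ratio turned to -0.99 (-1.65 to -0.35). Of the 52 UMIs under the label WT, 17 were in 1 cell, so this ratio and its interval lean on that cell. The ratio without it was not computed. Mucosal fibroblasts led by Tcf21, Tmem176a and Wnt4, which neighbour the epithelium, had 28 and 10 of the UMIs, at 53.9 and 14.9 CPM.

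**Figure D4:**
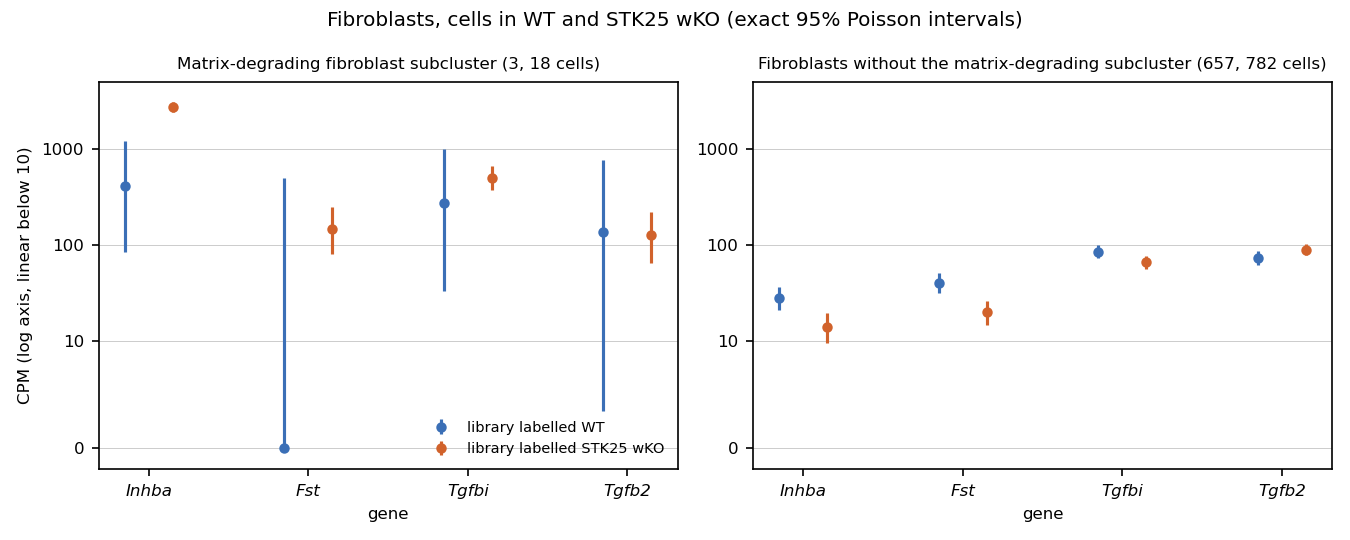
Inhba, Fst, Tgfbi and Tgfb2 in the matrix-degrading fibroblast subcluster (left, 3 and 18 cells) and in all other fibroblasts (right, 657 and 782 cells), in CPM on a log axis that is linear below 10 with exact 95% Poisson intervals. Inhba was at 2732 CPM in the subcluster of the library labelled STK25 wKO and at 14.0 CPM in its other fibroblasts.

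As a class, neutrophils went the other way. Inhba was at 127 CPM (89.8 to 174, 38 UMIs in 226 cells) and 55.5 CPM (48.0 to 63.8, 197 UMIs in 1607 cells), a log2 ratio of -1.19 (-1.70 to -0.65). In this class 11.5% of all genes were at least 2-fold higher and 14.2% at least 2-fold lower. Granule-rich neutrophils, marked by genes such as Ngp, Camp and Retnlg, numbered 4 and 463 cells and had Inhba at 27.8 CPM in the library labelled STK25 wKO. Without them, an alternative added likewise, the log2 ratio was -0.68 (-1.20 to -0.12). Tissue neutrophils, marked by genes such as Ccl3, Ccl4 and Tnf, had the opposite direction. They had 1 UMI in 32 cells (17.2 CPM) and 68 UMIs in 416 cells (87.7 CPM). That log2 ratio was 2.35, with an interval from -0.18 to 7.68. Under the label WT, most Inhba UMIs of the class were in subclusters of neither state.

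In the remaining classes Inhba rested on few UMIs. Blood endothelial cells, where 4.79% of all genes were at least 2-fold higher and 3.81% at least 2-fold lower, had 1 UMI in 271 cells and 29 UMIs in 15 of 580 cells, at 1.42 and 17.5 CPM. Dendritic cells had 18 and 4 UMIs, at 21.4 and 4.72 CPM, with 3.88% of all genes at least 2-fold higher and 12.5% at least 2-fold lower. The direction in dendritic cells turned under a stricter cell filter and when doublets were removed. T or NK cells were at 2.83 and 6.80 CPM and epithelial cells at 4.09 and 6.40 CPM, beside 2.75 and 10.7 CPM in B cells. At 1000 UMIs per cell, 0.334% and 0.236% of T or NK cells had a UMI of Inhba, close to the shares of B cells. No expression by T or NK cells is read from this, and the source of the RNA was not tested. Epithelial cells had 0.365% and 0.675%, but their UMIs were not spread evenly. The cluster with Mdga2 and Pnliprp2 among its leading genes held 71 of 92 and 185 of 288 of them, at 11.3 and 14.5 CPM, against 2.01 and 4.43 CPM in the cluster led by Saa1, Ly6m and Clca4b.

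In order of level, macrophages or monocytes and then neutrophils stood highest in the library labelled WT, and pericytes or smooth muscle (30.9 CPM), fibroblasts and dendritic cells followed with overlapping intervals. In the other library macrophages or monocytes were followed by fibroblasts, neutrophils and pericytes or smooth muscle (27.5 CPM), and the intervals of these 4 classes were apart.

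Tgfb1 (ENSMUSG00000002603; chromosome 7, 25687002 to 25705077), the form of TGF-β that immune cells make, was the most widely detected ligand. It was highest in macrophages or monocytes, at 280 CPM (248 to 316) and 285 CPM (269 to 302), a log2 ratio of 0.03 (-0.17 to 0.22). Neutrophils came next in the library labelled WT only. Lymphatic endothelial, dendritic, blood endothelial, T or NK and B cells lay between 80.2 and 127 CPM in both libraries, and neighbours in that order overlapped within their intervals. Fibroblasts were at 38.0 and 33.1 CPM and epithelial cells lowest, at 11.2 and 14.3 CPM. Among T cell clusters the highest level was in the cluster led by Il17a, Trdv4 and Cd163l1, genes of interleukin-17-producing γδ T cells, at 188 and 173 CPM.

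Within macrophages Tgfb1 followed the states less steeply than Inhba. It was at 240 and 194 CPM in the C1q state and at 400 and 386 CPM in the low-C1q state. The class where it differed by over 2-fold between the libraries was neutrophils, at 144 CPM (104 to 193, 43 UMIs) and 63.9 CPM (55.9 to 72.8, 227 UMIs), a log2 ratio of -1.17. Without granule-rich neutrophils this was -0.63 (-1.13 to -0.11).

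By level in CPM, Tgfb2 and Tgfb3 were highest in stromal classes and, for Tgfb2, glia. Tgfb2 (ENSMUSG00000039239; chromosome 1, 186622792 to 186705989) was highest in glia, cells marked by genes such as Sox10 and S100b that support gut nerves, at 695 CPM (509 to 927, 46 UMIs in 27 cells) and 379 CPM (225 to 600, 18 UMIs in 25 cells). A UMI of it was in 11 and 10 of these glia. Pericytes or smooth muscle (92.8 and 86.1 CPM), fibroblasts (73.4 and 90.2 CPM) and lymphatic endothelial cells (68.0 and 63.8 CPM) followed, with intervals that overlapped each other. Macrophages or monocytes had only 1 and 4 UMIs of it and B cells 3 and 0. Blood endothelial cells were at 24.2 CPM (17 UMIs) and 11.4 CPM (19 UMIs), a log2 ratio of -1.08 with an interval from -2.10 to -0.04.

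Tgfb3 (ENSMUSG00000021253; chromosome 12, 86056745 to 86079041) was the scarcest member, with 177 and 219 UMIs over all cells. It was at 47.3 and 29.3 CPM in lymphatic endothelial cells, 30.9 and 33.0 CPM in pericytes or smooth muscle and 28.4 and 18.8 CPM in fibroblasts, and the intervals of these classes overlapped. Among T cells it was again the Il17a, Trdv4 and Cd163l1 cluster that stood highest, at 20.9 and 30.7 CPM from 6 and 14 UMIs. No counted class reached a 2-fold difference in Tgfb3 between the libraries. Epithelial cells held 20.9% and 33.3% of the Tgfb3 UMIs and fibroblasts 29.9% and 22.8%, although the epithelial level was only 1.65 and 1.62 CPM.

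Of the receptors, Tgfbr2 (ENSMUSG00000032440; chromosome 9, 116084293 to 116175360), which binds TGF-β first, had the most UMIs, 6210 and 6694. Lymphatic endothelial cells were highest at 635 CPM (569 to 707) and 472 CPM (425 to 523). Fibroblasts were at 330 and 335 CPM, blood endothelial cells at 308 and 242 CPM, B cells at 290 and 262 CPM and T or NK cells at 286 and 168 CPM. Epithelial cells stood below these, at 97.6 and 73.9 CPM.

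Tgfbr1 (ENSMUSG00000007613; chromosome 4, 47353222 to 47414931), the type I partner of Tgfbr2, was by contrast highest in macrophages or monocytes, at 502 CPM (459 to 549) and 282 CPM (266 to 299), a log2 ratio of -0.83 (-0.99 to -0.68). Its order over macrophage states was the reverse of that of Inhba. The C1q state had 798 and 508 CPM and the low-C1q state 150 and 114 CPM, which is 5.31 and 4.45 times as much in the C1q state. Tgfbr2 had the same order, at 282 against 139 CPM under the label WT and 205 against 49.7 CPM under STK25 wKO. When cells were split by their own C1q UMIs instead, the gaps were smaller. Tgfbr1 was at 280 and 202 CPM in cells with none and at 557 and 365 CPM in cells above 10 per 10000. Cells between these had 702 and 228 CPM, the highest level under the label WT. Tgfbr2 was at 161 and 60.1 CPM in cells with none and at 214 and 154 CPM in cells above 10 per 10000. The Nos2, Ccl5 and Timp1 subcluster, highest in Inhba, had 48.4 CPM of Tgfbr1 and 28.2 CPM of Tgfbr2 in the library labelled STK25 wKO, and the Vcam1, Adgrl3 and Hdac9 subcluster, which had no Inhba, had 544 and 324 CPM.

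The activin receptors were more even across classes. Acvr2a (ENSMUSG00000052155; chromosome 2, 48814109 to 48903269) ranged in the library labelled WT from 20.0 CPM in neutrophils to 93.4 CPM in macrophages or monocytes, plasma cells without a UMI aside. Acvr1b (ENSMUSG00000000532; chromosome 15, 101174067 to 101213684) was highest in epithelial cells in the library labelled WT, at 44.6 CPM (41.9 to 47.4), where all other classes lay between 12.4 and 34.8 CPM. In the library labelled STK25 wKO epithelial cells were at 29.4 CPM (27.8 to 31.0), below pericytes or smooth muscle at 33.0 CPM from 18 UMIs. Within the epithelium both activin receptors were highest in the cluster led by Htr4, Esrrg and Cftr among clusters of over 100 cells, at 92.1 and 83.8 CPM for Acvr1b and 104 and 128 CPM for Acvr2a. That cluster had 0 and 4 UMIs of Inhba.

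Receptor levels were lower in the library labelled STK25 wKO in 38 of 42 counted pairs of a receptor and a class, with a median log2 ratio of -0.39 and 16 intervals below 0 and none above. These are 90.5% and 38.1% of the receptor pairs, against 53.7% and 19.5% of all gene and class pairs, of which 14.2% had an interval above 0. All 4 receptor genes span over 30 kb, and among pairs of genes of that length 70.4% were below 0, 31.7% had an interval below 0 and 5.59% one above. For the 4 ligands the split was 15 below and 15 above, with a median of 0.00. Past 2-fold were Tgfbr1 in neutrophils, at 160 and 47.6 CPM (log2 ratio -1.75, and -1.05 without granule-rich neutrophils), Acvr2a in macrophages or monocytes, at 93.4 and 45.7 CPM (-1.03, within 2-fold under 4 of 10 alternatives), and Acvr1b in dendritic cells, at 29.8 and 10.6 CPM from 25 and 9 UMIs (-1.49). T or NK cells, where 4.88% of all genes were at least 2-fold higher and 6.64% at least 2-fold lower, had Tgfbr2 at a log2 ratio of -0.77 (-0.91 to -0.62).

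Long genes as a group were also lower in that library. Genes spanning over 50 kb had a median log2 ratio of -0.50 in macrophages or monocytes (3219 genes), -0.39 in epithelial cells (4486 genes), -0.55 in neutrophils (2973 genes) and -0.15 in fibroblasts (3753 genes), while genes of up to 10 kb had 0.37, 0.11, 0.17 and 0.22. Tgfbr1, Tgfbr2 and Acvr2a span 61.7, 91.1 and 89.2 kb and Acvr1b 39.6 kb, against 19.8 kb for Inhba and 6.66 kb for Fst. Length did not separate the receptors from all other members. The ligand Tgfb2 spans 83.2 kb and was below 0 in 5 of 6 counted pairs, with a median log2 ratio of -0.33. Tgfbi also passes the length cut used for the receptor pairs, but was below 0 in 3 of 10. Tgfb1 (18.1 kb) was below 0 in 3 of 10, Tgfb3 (22.3 kb) in 4 of 6, Inhba in 3 of 8 and Fst in 1 of 4. The part of gene length in the lower receptor levels was not tested. The mix of macrophage subclusters moved with them too, since at the subcluster weights of the library labelled WT the log2 ratios were -0.47 for Tgfbr1, -0.38 for Tgfbr2 and -0.73 for Acvr2a.

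Fst (ENSMUSG00000021765; chromosome 13, 114452290 to 114458951), the antagonist, was found mainly outside the macrophage class, which held the largest share of Inhba. Epithelial cells held 80.0% and 85.1% of its UMIs, at 20.6 CPM (18.8 to 22.6) and 20.8 CPM (19.5 to 22.2), a log2 ratio of 0.01 (-0.15 to 0.18), where 3.03% of all genes were at least 2-fold higher and 4.69% at least 2-fold lower. Within the epithelium it was concentrated in the cluster with Mdga2, Pnliprp2 and the Wnt inhibitor genes Nkd1 and Wif1 among its leading genes. There it was at 59.9 CPM (54.0 to 66.3) and 51.2 CPM (47.3 to 55.2). The cluster led by Saa1, Ly6m and Clca4b had 9.22 and 20.5 CPM (17.9 to 23.5 for the latter), and the Htr4, Esrrg and Cftr cluster 1.91 and 1.48 CPM. Close levels over the class thus held a higher level under the label STK25 wKO in the Saa1, Ly6m and Clca4b cluster. In the cluster with Mdga2 and Pnliprp2 the intervals of the libraries overlapped, and no direction is read there. Of the epithelial cells, 2532 of 2649 and 4634 of 4910 had no UMI of Fst. The intervals are therefore too narrow as statements about cells.

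Fibroblasts were the second source of Fst, at 40.2 CPM (31.6 to 50.4) and 24.4 CPM (18.9 to 31.2), a log2 ratio of -0.72 (-1.22 to -0.22). Mucosal fibroblasts led by Tcf21, Tmem176a and Wnt4 had 46 and 5 UMIs, or 88.5 and 7.45 CPM. Without the matrix-degrading subcluster the log2 ratio was -1.02, just past 2-fold, which brought the lower pairs from 8 to 9. As a mean over cells, in which every cell counts alike, the log2 ratio in fibroblasts was 0.03. Pericytes or smooth muscle, where 7.95% of all genes were at least 2-fold higher and 7.31% at least 2-fold lower, had 2 UMIs in 92 cells and 25 UMIs in 6 of 161 cells, at 7.73 and 45.8 CPM. In macrophages or monocytes, the main source of Inhba, Fst had 1 and 18 UMIs.

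Tgfbi (ENSMUSG00000035493; chromosome 13, 56609523 to 56639562) shared the macrophage class with Inhba but not its states. It was at 700 CPM (648 to 754) and 874 CPM (846 to 903) in macrophages or monocytes, a log2 ratio of 0.32 (0.20 to 0.44), which became 0.03 at the subcluster weights of the library labelled WT. A UMI was in 50.2% and 66.4% of these cells. The C1q state had 717 and 786 CPM and the low-C1q state 740 and 906 CPM. Split by their own C1q UMIs, cells with none had 515 and 851 CPM and cells above 10 per 10000 had 953 and 994 CPM. Cells between these had 478 and 680 CPM. By that split Tgfbi was highest where C1q was highest. By subcluster it was high in C1q macrophages led by Mfge8, Gpnmb and Ctsd (1077 and 971 CPM), in the Wfdc21, Lrg1 and Chil3 subcluster (1144 CPM) and in the Il23a, Thbs1 and Plcb1 subcluster (1192 and 1248 CPM). It was low, at 294 CPM, in the Nos2, Ccl5 and Timp1 subcluster of the library labelled STK25 wKO, where Inhba was highest.

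Over all cells Tgfbi was at 35.5 CPM (33.6 to 37.4) and 83.8 CPM (81.6 to 86.0), a log2 ratio of 1.24 that became 0.49 at the class shares of UMIs in the library labelled WT. Neutrophils were at 76.8 CPM (48.7 to 115, 23 UMIs) and 175 CPM (161 to 189, 621 UMIs), a log2 ratio of 1.19 (0.59 to 1.86), and 1.07 (0.45 to 1.75) without granule-rich neutrophils. It was within 2-fold, at 0.88 and 0.96, without a cell filter and with the stricter one. Lymphatic endothelial cells, where 7.51% of all genes were at least 2-fold higher and 3.96% at least 2-fold lower, had 157 CPM (125 to 194) and 71.4 CPM (54.0 to 92.7), a log2 ratio of -1.14 (-1.65 to -0.63). This was within 2-fold as a mean over cells (-0.53), with cells thinned (-0.63) and with doublets removed (-0.99). Thinned to 1000 UMIs, 12.5% and 8.59% of these cells had a UMI. Fibroblasts were at 85.7 and 81.6 CPM.

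In B cells, T or NK cells and epithelial cells, with little Tgfbi, the library labelled STK25 wKO was higher. B cells, where 3.94% of all genes were at least 2-fold higher and 4.85% at least 2-fold lower, were at 15.9 and 46.9 CPM, T or NK cells at 14.6 and 33.0 CPM and epithelial cells at 6.22 and 11.8 CPM. Unnamed clusters were at 31.6 and 68.3 CPM. At 1000 UMIs per cell the share with a UMI was 0.831% and 3.78% of B cells, 1.44% and 3.22% of T or NK cells and 0.567% and 2.19% of epithelial cells. Epithelial cells lay below B cells, a class not known for Tgfbi, and so did T or NK cells in the library labelled STK25 wKO. No expression by B cells, T or NK cells or epithelial cells is read from these levels, and the source of the RNA was not tested. T or NK cells of the library labelled WT had a larger share with a UMI than B cells but a lower level in CPM, and no order is read from them.

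From the wider list of 47 pathway genes, 31 had at least 20 UMIs in macrophages or monocytes, with 1 at least 2-fold higher, 4 at least 2-fold lower and a median log2 ratio of -0.30, against 1 and 1 of 8 members with a median of -0.43 and a median of -0.11 over all genes. The lower genes were Smad3, which carries the signal of both TGF-β and activin, at 154 and 64.3 CPM (-1.26), Nrros, which anchors latent TGF-β on macrophages, at 284 and 135 CPM (-1.08), Smurf1, which tags receptors and SMADs for degradation, at 101 and 45.7 CPM (-1.14), and the activin receptor Acvr2b, from 8 and 13 UMIs (-1.40). The higher gene was Fbn1, from 2 and 18 UMIs (1.07). Thbs1, which can release active TGF-β and is itself a target, was at 915 and 1145 CPM, the inhibitory Smad7 at 195 and 132 CPM, Pmepa1 at 263 and 222 CPM, Smad4 at 143 and 99.6 CPM, and the integrin gene Itgav at 313 and 310 CPM.

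In fibroblasts 40 genes of the list were counted, with 1 higher, 2 lower and a median of -0.02, beside a median of -0.14 for the members and 0.02 for all genes. Both lower genes were ligands. Inhbb, the chain of activin B, was at 45.0 and 16.5 CPM (-1.44), and Gdf11 at 15.5 and 6.02 CPM (-1.37). The higher gene was Itgb6, an integrin chain that activates latent TGF-β and is known from epithelium, from 8 and 25 UMIs (1.13). Ltbp4, which stores latent TGF-β in the matrix, was at 1202 and 1001 CPM, Pmepa1 at 578 and 577 CPM, Ccn1 at 466 and 519 CPM and Bmpr2 at 141 and 116 CPM, all within 2-fold.

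In epithelial cells 41 were counted, with 1 higher, none lower and a median of -0.32, beside -0.13 for the members and -0.14 for all genes. The higher gene was Lefty1, an inhibitor of nodal signalling, at 2.18 and 4.91 CPM (1.17). Pmepa1 was at 322 and 349 CPM, Smad7 at 150 and 106 CPM, Smad3 at 92.4 and 53.9 CPM and Acvr1 at 40.9 and 31.0 CPM. In blood endothelial cells 35 were counted, with none higher, 2 lower and a median of -0.07, beside -0.27 for the members and -0.02 for all genes. These were the matrix genes Ltbp1, at 51.2 and 10.8 CPM (-2.24), and Fbn1, at 108 and 39.2 CPM (-1.46).

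Genes with the pattern most like each member were ranked by Pearson correlation of log2(CPM + 10) over 22 pairs of a class and a library with at least 30 cells, among 13845 genes. The pairs share 2 libraries and their depths, so the values are a description. For Inhba they were Vegfa (0.89), Fam20c (0.87) and Ctsb (0.87), and for Tgfbi Sirpa (0.91), Lipa (0.86) and Creb5 (0.85). The closest to Tgfbr1 was Mitf (0.87), followed by Adam17 and Clec4a1 (0.87 and 0.86). Tgfb2 came closest to Adgra2, Gucy1a1 and Nynrin (0.97, 0.97 and 0.96), Tgfb3 to Sgcd, Rspo3 and Gucy1b1 (0.94, 0.92 and 0.92) and Fst to Ror2, Ddit4l and Maged2 (0.92, 0.90 and 0.90). For Tgfb1 these were Dusp2, Rin3 and Ptpn1 (0.91, 0.87 and 0.87), and for Tgfbr2 Pkn2, Ctdspl2 and Map2k5 (0.88 for each). Acvr2a was most like Trim41, Rgl2 and Nsd2 (0.90, 0.89 and 0.89) and Acvr1b, with the weakest likeness, Epb41l3, Gm20732 and Lrp6 (0.84, 0.82 and 0.81).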

How the data were processed

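Whole-number UMI counts for each gene and barcode, deposited unnormalised, came from Cell Ranger 7.1.0 on mm10 per the file headers. The kit version, and whether reads in introns were counted, are not given in the sources used here, and Seurat is named without a role. The members and lists were chosen with earlier results of these data known. Barcodes under 200 genes (2 and 3) or over 25% mitochondrial UMIs (270 and 282) were removed from 12542 and 14168.

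After scaling to 10000 UMIs and a log transform, 2000 variable genes without the members or the wider list, 30 components and 20 neighbours gave Leiden clusters (resolution 1, subclusters 0.8). A class needed 3 markers in at least 10% of its cells and 5 points above the median cluster, thresholds set after seeing the data. Scrublet marked 0% as doublets automatically, so none were taken out for the values reported. As an alternative the top-scoring 9.81% and 11.1% were removed. Thinning left out cells under 1000 UMIs, 27 and 31 of the macrophage class. Levels are CPM of UMIs added up over the cells of a class in a library. Intervals are Poisson for levels, conditional binomial for ratios and Clopper-Pearson for shares. The 10 members were named in every class. From the wider list, genes with at least 20 UMIs and a 2-fold difference in 4 classes were named, and the 2 with the most UMIs in each of 6 sublists. For each member the 3 genes most alike were named, and genes that lead a described cluster. Genes named beyond these were chosen after their values were seen. Coordinates are from GENCODE M21 (GRCm38).

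On simulated counts of the macrophage class (11011 genes), 95.8% of intervals held the true ratio, and the direction was right for 97.9% of 97 genes changed by a log2 ratio of 1 and for 100% of 90 changed by 2. The simulated counts were Poisson sums over the class without spread between cells, which is what the intervals assume. They therefore check the calculation only, and not how well the intervals hold for real cells. Clustering used scanpy 1.11.5, leidenalg 0.10.2 and igraph 0.11.9. Statistics used scipy 1.17.1, figures matplotlib 3.10.9, and tables pandas 2.3.3 under Python 3.11.15.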

Additional observations from a re-analysis of the deposited data

Results flagged for a closer look

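Inhba was at least 2-fold higher in the library labelled STK25 wKO in macrophages or monocytes (log2 ratio 1.07) and at least 2-fold lower in neutrophils (-1.19), a gap of 2.27 between classes of the same libraries. Within neutrophils the tissue state did not share the direction of its class, at 2.35 (-0.18 to 7.68) from 1 and 68 UMIs. Tgfbi was at least 2-fold higher in neutrophils (1.19) and at least 2-fold lower in lymphatic endothelial cells (-1.14), a gap of 2.32. Both Tgfbi values depended on the processing. In lymphatic endothelial cells 7 of 10 alternatives stayed past 2-fold, and the others gave -0.53 as a mean over cells, -0.63 with cells thinned and -0.99 with doublets removed. In neutrophils 8 of 10 did, and the others gave 0.88 with no cell filter and 0.96 with the stricter filter. With 1 library per group, neither difference between classes was tested.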

How the results depend on the processing

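No paired analysis was possible because the groups have 1 library each and share no replicate number. Inhba in macrophages or monocytes kept its direction under all 10 alternatives (log2 ratio 0.998 to 1.54) and was past 2-fold in 9, all but the stricter cell filter, rising to 1.43 as a mean over cells and 1.54 with cells thinned to 1000 UMIs. Over all cells it was 2.26, 2.31 and, centred on the median of all genes, 2.01. The ratio of low-C1q to C1q macrophages kept its direction but not its size. In the library labelled WT it was 1.5 with no cell filter, 2.75 with a stricter one (500 genes, 10% mitochondrial UMIs), 5.30 at resolution 0.5, at least 3.93 when thinned (0 UMIs set at 3) and 3.08 by C1q UMIs per cell. In the library labelled STK25 wKO it was 1.56, 2.36 and 2.75 under the first, second and last of these, 3.49 with the members kept among the clustering genes, 3.53 with doublets removed and 3.41 when centred.

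The number of higher pairs went from 8 to 4 at a minimum of 100 UMIs. That of lower pairs became 5 there and as a mean over cells, 4 when thinned and 13 with no minimum but a UMI in each library. Of the single pairs, Inhba in dendritic cells reversed to 0.66 under the stricter cell filter and 0.044 with doublets removed, Fst in fibroblasts to 0.032 as a mean over cells (-1.02 without the matrix-degrading subcluster), and Inhba in fibroblasts to -0.99 without the matrix-degrading subcluster, which was added with the data in view. The value of -0.99 leans on 1 cell that held 17 of the 52 UMIs under the label WT. The cause of these changes was not tested, beyond the cells each setting leaves out. Of 829 values of 86 pairs under the other settings, 791 stayed within the main interval. Depth limits Tgfb3, glia and plasma cells most.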

Other observations

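Activin B showed another distribution than activin A. Inhbb, the chain of activin B, was at 91.0 CPM (64 UMIs) and 128 CPM (212 UMIs) in blood endothelial cells, the log2 ratio being 0.49 (0.08 to 0.92), while Inhba there had 1 and 29 UMIs. In macrophages or monocytes, the main source of Inhba, Inhbb had 0 and 3 UMIs. In fibroblasts Inhbb was at 45.0 and 16.5 CPM.

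Lymphatic endothelial cells stood out among the stromal classes in the library labelled WT for holding the highest level of Tgfbr2 (635 CPM) and of Tgfb3 (47.3 CPM) of all classes, beside 127 CPM of Tgfb1 and 68.0 CPM of Tgfb2. Inhba had no UMI in their 199 cells and 5 in the 233 of the other library.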
